A study of Mus musculus with 2 samples.

Results

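NF-κB is a family of dimeric transcription factors, and the genes described here encode its subunits, the IκB proteins that hold it in the cytoplasm and the IKK complex that releases it. The members were named by a list of 10 gene symbols. *Nfkb2*, *Rel*, *Rela*, *Relb*, *Nfkbia*, *Nfkbie*, *Ikbkb* and *Ikbkg*, 8 of the 10, had at least 1 probe set that the platform annotation pairs with that symbol alone, 23 probe sets in all among 34945 probe sets of 18193 genes. *Nfkb1* and *Chuk* are not analysed here. The signals came from brain mononuclear cells, the cells of digested whole brain that collect between the layers of a Percoll gradient, with microglia enriched among them. RNA from 7 male WT mice aged 10 to 15 wks was pooled on 1 GeneChip Mouse Genome array, and RNA from 6 male CD47 KO mice aged 12 to 16 wks, which lack the ligand of the inhibitory receptor SIRPα through a null *Cd47* gene in all cells, on another. With 1 pooled array per genotype, nothing measures the spread between animals, so no p-value is given and each difference describes these 2 arrays.

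In resting cells, IκB proteins such as IκBα (*Nfkbia*) and IκBε (*Nfkbie*) mask NF-κB dimers. Receptors for cytokines and microbial products activate the IKK complex, made of the kinases IKKα (*Chuk*) and IKKβ (*Ikbkb*) and the scaffold NEMO (*Ikbkg*), which marks IκB for degradation so that RelA (*Rela*) or c-Rel (*Rel*), paired with a product of *Nfkb1*, enters the nucleus. In the non-canonical pathway the kinase NIK and IKKα drive the processing of the *Nfkb2* product, the partner of RelB (*Relb*). NF-κB activates *Nfkbia* itself, which closes a negative feedback loop, and in microglia it drives cytokine and chemokine genes. Much of its regulation acts on protein, through degradation and nuclear entry, and the arrays measured RNA only.

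The values are MAS5 signals, linear measures of probe set brightness, and the Log2 ratio is that of the CD47 KO signal over the WT signal. Both arrays had a trimmed mean of 500.002, and their medians were 161 in WT and 146 in CD47 KO cells. Expressed probe sets are those at or above the median of the array they were read on, in WT or CD47 KO cells, which held for 21167 probe sets of 11695 genes and for 19 of the 23 member probe sets. *Cd47*, the gene knocked out, had Log2 ratios between -1.45 and -1.86 on its 5 probe sets. The only internal measure of error is how far probe sets of 1 gene differ. It was taken as the SD of the Log2 ratio about the gene's mean over 14971 expressed probe sets of 5499 genes, in 4 equal classes of mean signal. This SD was 0.82 under a mean signal of 256, 0.57 up to 503, 0.46 up to 1156 and 0.32 above. It follows a Log2 ratio as ± below, and it holds probe effects and transcript forms but nothing of the animals.

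*Nfkb2*, *Rel* and *Nfkbia* serve as examples of members that are also known targets of NF-κB. The 250 bases before a transcript start of each are shown, as RefSeq gives them on GRCm38.p6 and read along the gene's own strand. Capitals mark matches to the κB consensus, the decamer that NF-κB dimers bind, searched for on both strands, with overlapping matches joined. The *Nfkbia* sequence lies on the minus strand at chr12:55492648-55492897, directly before the gene (chr12:55489409-55492647), and the *Rel* sequence on the minus strand at chr11:23770970-23771219, directly before the gene (chr11:23736847-23770969). The *Nfkb2* sequence lies on the plus strand at chr19:46304487-46304736, inside the annotated gene (chr19:46300994-46312400) and before one of its later transcript starts. Of the 3 *Nfkb2* windows described below, the window shown in part here held the most matches.
Nfkbia: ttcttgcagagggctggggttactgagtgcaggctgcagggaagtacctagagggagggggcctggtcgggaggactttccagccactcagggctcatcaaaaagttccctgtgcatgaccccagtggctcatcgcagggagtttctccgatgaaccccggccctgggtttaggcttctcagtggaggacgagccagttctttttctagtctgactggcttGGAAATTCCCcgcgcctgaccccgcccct
Rel: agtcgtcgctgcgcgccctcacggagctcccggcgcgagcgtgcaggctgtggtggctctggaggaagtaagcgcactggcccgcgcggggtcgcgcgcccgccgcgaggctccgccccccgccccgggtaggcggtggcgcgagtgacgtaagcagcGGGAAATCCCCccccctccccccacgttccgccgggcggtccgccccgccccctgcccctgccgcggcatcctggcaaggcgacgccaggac
Nfkb2: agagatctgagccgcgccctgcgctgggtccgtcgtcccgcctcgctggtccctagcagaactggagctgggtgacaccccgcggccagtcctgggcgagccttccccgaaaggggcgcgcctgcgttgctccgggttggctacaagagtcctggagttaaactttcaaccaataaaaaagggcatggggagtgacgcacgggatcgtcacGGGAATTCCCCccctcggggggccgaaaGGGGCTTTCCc

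Counted from the transcript start, the *Nfkbia* match began at -29, the *Rel* matches at -92 and -91 and the *Nfkb2* matches at -39, -38 and -11. Over windows that run from 250 bases before to 50 after a start, 6 of the 12 windows of 7 members held a match, those of *Nfkbia*, *Rel* and *Nfkbie* and the 3 of *Nfkb2*, the last pair of which overlap and share a match. Of all 32851 windows of that length, 1480 (4.51%) held one. The window of *Rela*, that of *Chuk* and the 4 of *Ikbkg* held none, which says only that these letters are not in these windows. *Nfkb1*, *Relb* and *Ikbkb* have no entry. A match is a description of sequence and not evidence of binding in these cells.

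The subunit genes measured by 1 probe set each were all brighter in CD47 KO cells. *Rela*, which encodes the main activating subunit, had signals of 208 (WT) and 420.3 (CD47 KO), a Log2 ratio of 1.02 ± 0.57. *Relb*, the subunit of the non-canonical pathway, had 85.3 and 171, a Log2 ratio of 1.00 ± 0.82. *Rel*, the c-Rel gene of leukocytes, had 689 and 1073, a Log2 ratio of 0.64 ± 0.46. All 3 ratios were larger than the SD between probe sets at their brightness. *Rela* and *Relb* stood just past 2-fold, at 2.03-fold and 2.01-fold. *Relb* was under the array median in WT cells and counted as expressed only through the CD47 KO array. With the 25th percentile of each array added to its signals, *Rela* had a Log2 ratio of 0.86 and *Relb* 0.69.

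*Nfkb2*, which encodes the precursor of the non-canonical subunit, differed in direction between its probe sets. The brighter had 549 in WT and 719.6 in CD47 KO cells, which is a Log2 ratio of 0.39 ± 0.46, which is within the SD. The dimmer had 268 and 133, a Log2 ratio of -1.01 ± 0.82, and was under the array median in CD47 KO cells. The mean over both was -0.31. The brighter one carries the suffix that the manufacturer gives to probe sets whose probes may match other transcripts. Without such probe sets the value of *Nfkb2* was -1.01.

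*Nfkbia*, the IκBα gene, had nearly equal signals in both genotypes on each of its 5 probe sets, which lay between percentiles 94.1 and 99.1 of their arrays. The brightest had 9796 in WT and 10755 in CD47 KO cells, which is a Log2 ratio of 0.13 ± 0.32. The others had 8102 and 7849.5, 6403 and 6311, 4634 and 4274, and 2859 and 2709.8. Their Log2 ratios lay between -0.12 and -0.02, so 1 probe set was higher and 4 were lower in CD47 KO cells, all by less than the SD at that brightness. The signs are not stable, since centring each array on its median gave positive ratios on all 5, from 0.02 to 0.27. *Nfkbie*, the IκBε gene, was dimmer in CD47 KO cells on both of its probe sets. One had 338 in WT and 156 in CD47 KO cells, which is a Log2 ratio of -1.12 ± 0.82, and the other had 231 and 173, a Log2 ratio of -0.42 ± 0.82. The first exceeded the SD and the second did not. Both were negative in each setting that kept them, 9 settings for the first and 8 for the second.

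**Figure D1:**
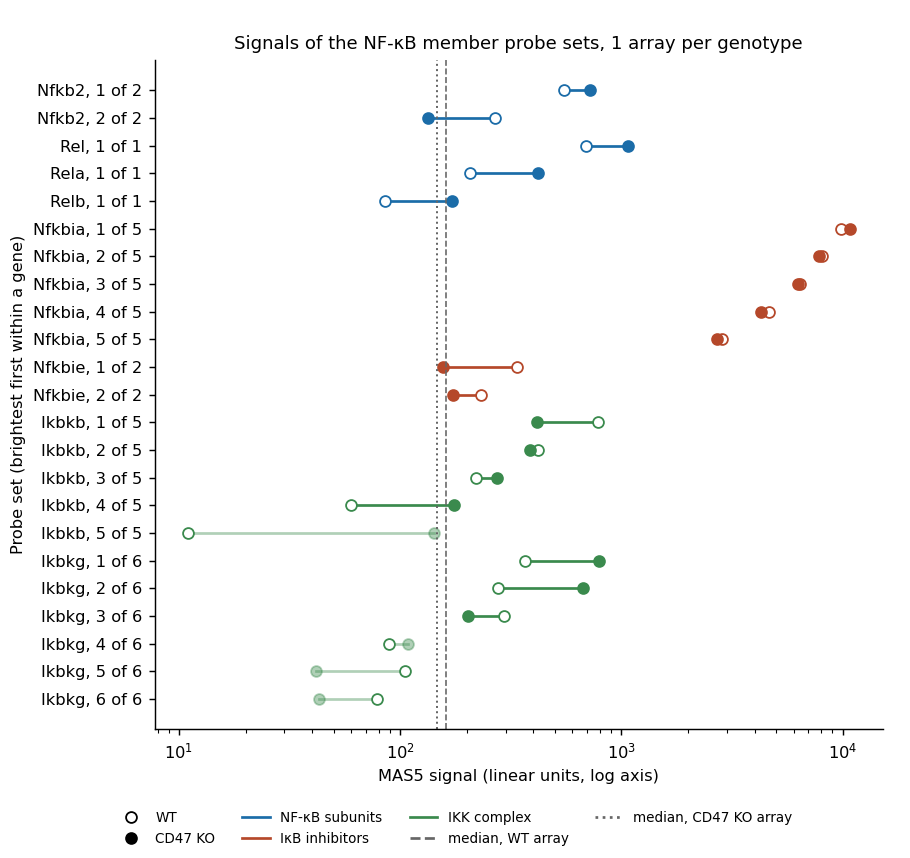
MAS5 signal (log axis) of the 23 member probe sets in WT (open) and CD47 KO cells (filled), 1 array per genotype, ordered by brightness within each gene. The vertical lines mark the array medians of 161 and 146, and pale symbols mark the 4 probe sets under both. The *Nfkbia* pairs nearly coincide, while *Ikbkb* and *Ikbkg* have pairs that run in opposite directions.

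The IKK complex genes gave no common direction over their probe sets. For *Ikbkb*, which encodes the kinase IKKβ, the brightest probe set had 781 in WT and 414 in CD47 KO cells, which is a Log2 ratio of -0.91 ± 0.46. The next had 418 and 386, a Log2 ratio of -0.11 ± 0.57. The dimmer ones went the other way, with 219.9 and 273 (0.31 ± 0.82) and with 59.8 and 175 (1.55 ± 0.82). The fifth, under the median on both arrays, had 11.0 and 142. That pair of signals gives a Log2 ratio of 3.69, but its WT signal lay at percentile 10.4 of the array. The probe sets with 59.8 and 175 and with 11.0 and 142 were both designed on the same cDNA clone, and whether their probes overlap was not analysed here. The mean over the 4 expressed probe sets was 0.21, opposite in sign to the brightest.

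For *Ikbkg*, which encodes NEMO, the direction differed with the sequence on which its probe sets were designed. The groups also differed in brightness, and most of these probe sets were dim. The 2 brightest, both designed on expressed sequence tags, had 367 in WT and 789 in CD47 KO cells (Log2 ratio 1.11 ± 0.46) and 278 and 671 (1.27 ± 0.57). These ratios were past 2-fold in the deposited signals and in each other setting that reads probe sets singly, 10 settings in all. Another probe set, designed on the same tag as the brightest and under the median on both arrays, had 89.0 and 109. The 3 designed on the same RefSeq mRNA were all dimmer in CD47 KO cells. The expressed one had 295 and 203, a Log2 ratio of -0.53 ± 0.82, which is within the SD. The other two, under both medians, had 105 and 41.5 and 78.5 and 42.8. Which *Ikbkg* transcripts each probe set reads was not analysed here.

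**Figure D2:**
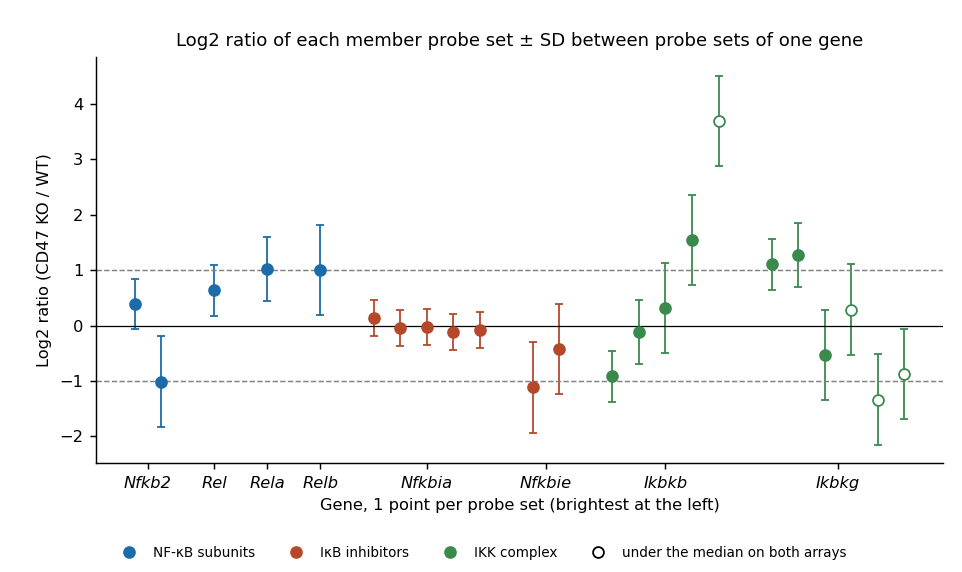
Log2 ratio (CD47 KO/WT) of each member probe set, ± the SD between probe sets of 1 gene at that brightness, with dashed lines at 2-fold. Open symbols mark the 4 probe sets under both array medians. The *Nfkbia* points lie within 0.13 of zero, and the *Ikbkb* expressed points run from -0.91 to 1.55.

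*Nfkb2*, *Ikbkb* and *Ikbkg* spanned a wider range over their probe sets than 75% of genes with as many probe sets, *Nfkbie* lay below that mark and *Nfkbia* below the 25th percentile. Among genes with 4 expressed probe sets, the median range of the Log2 ratio was 0.77 and the 75th percentile 1.18 (555 genes), while *Ikbkb* spanned 2.46. Among genes with 3, these were 0.68 and 1.14 (1404 genes), while *Ikbkg* spanned 1.81. Among genes with 2, they were 0.39 and 0.77 (3137 genes), while *Nfkb2* spanned 1.40 and *Nfkbie* 0.70. *Nfkbia* spanned 0.25 over its 5 probe sets, where genes with 5 had a median of 0.94 and a 25th percentile of 0.54 (240 genes). These figures are over genes of any brightness, and *Nfkbia* is bright. *Nfkb2*, *Nfkbia*, *Ikbkb* and *Ikbkg*, 4 of the 5 members with 2 or more expressed probe sets, had Log2 ratios of both signs, as did 55.6% of the 5499 such genes on the arrays. That share was 44.0%, 65.7%, 74.6% and 82.5% for genes with 2, 3, 4 and 5 expressed probe sets.

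Taken by gene, 4 of the 8 members had an expressed probe set more than 2-fold higher in CD47 KO cells, namely *Rela*, *Relb*, *Ikbkb* and *Ikbkg*, against 6.85% of all expressed genes. *Nfkb2* and *Nfkbie*, 2 of the 8, had one more than 2-fold lower, against 9.32%. Both shares are over genes with any number of expressed probe sets, and more probe sets give more chances to pass. Of genes with 2, 3, 4 and 5 expressed probe sets, 15.8%, 21.2%, 23.2% and 27.9% had one past 2-fold in either direction. *Ikbkb* passed only on its dimmest expressed probe set (59.8 and 175), while its brightest had a Log2 ratio of -0.91. On the brightest probe set of each gene alone, *Rela*, *Relb* and *Ikbkg* were past 2-fold higher and *Nfkbie* past 2-fold lower, against 3.56% and 5.46% of all genes. The median Log2 ratio of the 8 genes on the brightest probe set was 0.52, and that of all 11695 expressed genes was 0.00. Over all 19 expressed member probe sets, however, 9 had a positive and 10 a negative Log2 ratio. *Rela*, *Relb* and *Nfkb2* passed by 2.03-fold at most. Centring the arrays on their medians shifted the Log2 ratio of a typical gene by 0.14. The count was then 4 higher and none lower, beside 9.33% of all genes higher and 7.003% lower.

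Brightness bore on these counts. Over probe sets, 5 of the 19 expressed were more than 2-fold higher and 2 more than 2-fold lower, against 3.95% and 5.49% of all expressed probe sets. By class of mean signal, 4 of the 7 member probe sets in the dimmest class were past 2-fold in either direction, against 23.9% of all. In the next classes 2 of 3 passed against 9.58%, then 1 of 4 against 3.40%, and in the brightest class 0 of 5, all of them *Nfkbia*, against 0.888%. The Log2 ratio exceeded the SD at its brightness in 9 of the 19, or 47.4%, and in 28.1% of all expressed probe sets. Those of *Relb*, the dimmer *Nfkb2* and the dimmest expressed *Ikbkb* probe set counted as expressed through 1 array only, and a probe set that is kept that way tends to be one that differs. When both signals had to reach the array median, 3 of 16 member probe sets were higher (*Rela* and the brightest pair of *Ikbkg*) and 1 lower (*Nfkbie*), against 1.38% and 2.29%.

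**Figure D3:**
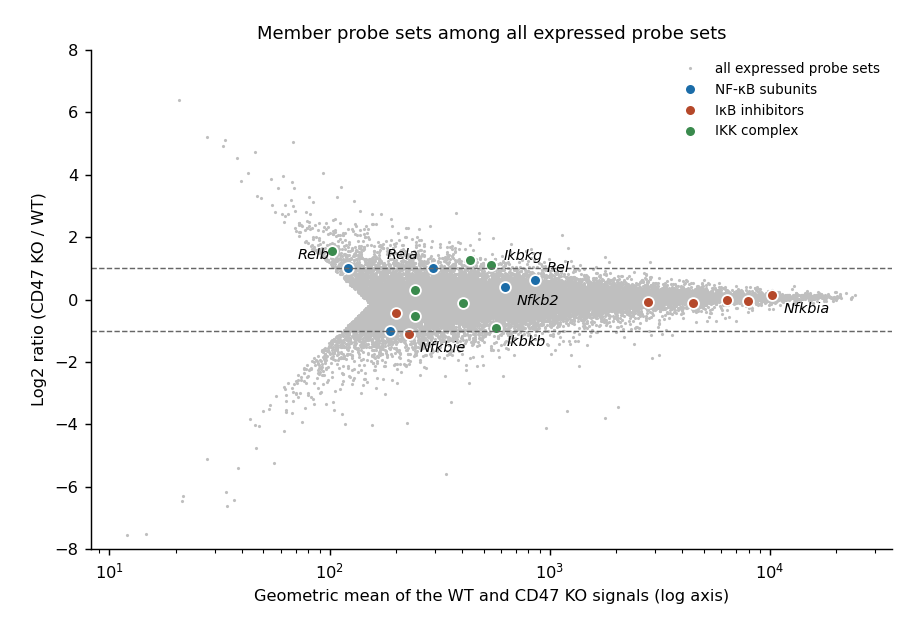
Log2 ratio (CD47 KO/WT) of the 21167 expressed probe sets against the geometric mean of their signals (log axis), with the 19 expressed member probe sets in colour, the brightest of each gene labelled and dashed lines at 2-fold. By mean signal, 7 of the 19 lie in the dimmest class, where the scatter is wide, and the 5 of *Nfkbia* lie in its narrow bright end. Probe sets under both array medians are not drawn.

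The rest of the pathway was read from hand-written lists by role, each gene by its brightest expressed probe set. Over the 62 expressed genes of these lists, 35 had a positive and 27 a negative Log2 ratio, 7 were more than 2-fold higher and 4 more than 2-fold lower, beside 3.56% and 5.46% of all expressed genes, and the median was 0.13. When both signals had to reach the array median, the counts were 2 higher (*Malt1* and *Cxcl16*) and 1 lower (*Zc3h12a*), so the others past 2-fold counted as expressed through 1 array only. None of the other IκB genes passed 2-fold. *Nfkbiz*, a nuclear IκB, had 5018 in WT and 5688 in CD47 KO cells, and *Nfkbid*, another, had 763 and 865, Log2 ratios of 0.18 for both. The median of the 3 expressed was 0.18, and *Bcl3* was under the median on both arrays.

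Among 20 expressed adaptors and kinases that act before IKK, 15 had a positive and 5 a negative Log2 ratio, with a median of 0.20. The brightest were *Ube2n*, a ubiquitin-conjugating enzyme gene, with 5296 and 4874 (Log2 ratio -0.12), and *Tab2*, an adaptor of the kinase TAK1, with 3435 and 3979 (0.21). Those past 2-fold were dim, and only *Malt1* reached the median on both arrays. *Rnf31*, which encodes the catalytic subunit of the linear ubiquitin ligase, had 19.2 and 155 (3.02), with its WT signal under the 25th percentile of the array (43.0). *Traf1*, a TNF receptor adaptor gene, had 98.6 and 227 (1.20), and *Malt1*, a protease of lymphocyte signalling, had 199.7 and 419.8 (1.07), with -0.54 on its other probe set. *Map3k14*, the gene of NIK in the non-canonical pathway, had 239.8 and 119.8, just past 2-fold lower and so opposite in direction to *Relb*.

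Of the 12 expressed negative regulators, 9 had a negative and 3 a positive Log2 ratio, with a median of -0.27. Taking the mean over the probe sets of each gene moved that median to 0.0081. *Tnfaip3*, which encodes the deubiquitinase A20, was bright with 2654 and 2950.4 (0.15), and *Commd1* had 2017 and 1767 (-0.19). Past 2-fold were *Nlrc3* with 169 and 36.4 (-2.21), *Tank* with 293 and 115 (-1.34), *Zc3h12a*, which encodes an RNase that degrades cytokine mRNA, with 364 and 179.6 (-1.02), and in the other direction *Irak3*, an inhibitory kinase homologue of Toll-like receptor signalling, with 80.3 and 179 (1.16). All 4 were measured by 1 expressed probe set each.

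Genes that NF-κB is known to activate ranged from dim to among the brightest on the arrays. Of 31 expressed, 18 had a positive and 13 a negative Log2 ratio, with a median of 0.15. On the brightest probe set, 4 were more than 2-fold higher and no gene passed 2-fold lower. With any expressed probe set counted, 5 were higher and 1 lower, beside 6.85% and 9.32% of all expressed genes. *Cxcl1* was in both of these counts, with 1.68 and -1.26 on its dimmer probe sets. The chemokine genes *Ccl3* (18268 in WT and 21694 in CD47 KO cells) and *Ccl4* (9334 and 10967) had Log2 ratios of 0.25 and 0.23. The 4 past 2-fold were the cytokine genes *Csf2* (150.3 and 365, Log2 ratio 1.28) and *Tnf* (150.5 and 365, 1.28), *Traf1* and *Cxcl16*, a chemokine gene, with 877 and 1865 (1.09), whose other expressed probe set had 0.76. *Csf2*, *Tnf* and *Traf1* were under the median of the WT array and counted as expressed through the CD47 KO array only. *Nfkbiz*, *Birc3*, *Traf1* and *Tnfaip3* are also counted in the lists above.

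**Figure D4:**
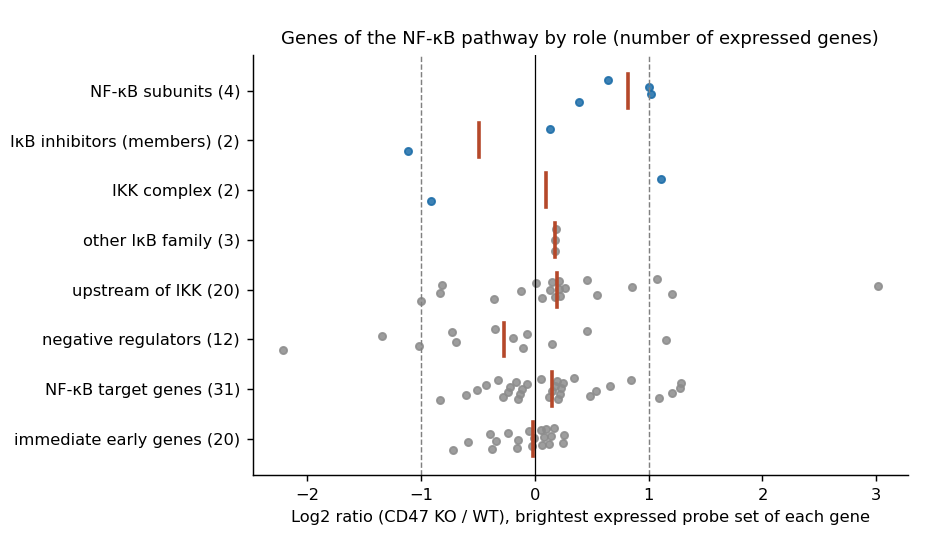
Log2 ratio (CD47 KO/WT) of each expressed gene on its brightest probe set, by role, with the number of genes in parentheses, red bars at the list medians and dashed lines at 2-fold. Members are blue. The 4 subunit genes lie at 0.39 to 1.02, and the other lists have medians between -0.49 and 0.20.

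The cells were digested at warm temperature before RNA was taken, and immediate early genes, which respond within minutes to handling, had signals between 384 and 13936. All 20 were expressed, 9 with a positive and 11 with a negative Log2 ratio and a median of -0.01. The brightest, *Zfp36* with 12617 and 13936 and *Dusp1* with 11956 and 12625, had Log2 ratios of 0.14 and 0.08. None passed 2-fold on its brightest probe set. The largest ratio there was that of *Myc*, with 962 and 585 (-0.72), and *Fosl2* had -1.21 on its other probe set. Markers of the cells in the preparation differed between the arrays. Median Log2 ratios were 0.19 for microglia (15 of 15 expressed markers higher in CD47 KO cells, summed signals 142503 and 163534), 0.30 for astrocytes (7 of 8 higher), 0.04 for neurons (6 of 10 higher) and 0.02 for oligodendrocytes (5 of 9 higher). They were -0.25 for neutrophils (8 of 10 lower), -0.42 for monocytes (7 of 8 lower, summed signals 32540 and 25334), -0.18 for T cells (4 of 7 lower, although their summed signal was higher in CD47 KO cells), -0.35 for B cells (5 of 6 lower), -0.47 for endothelial cells (8 of 9 lower), -0.68 for fibroblasts and meninges (8 of 10 lower) and -0.61 for pericytes and smooth muscle (7 of 9 lower). The Log2 ratio of the summed signal ran from -0.64 (pericytes and smooth muscle) to 0.27 (astrocytes). No marker signal was at 0 on either array. NF-κB genes are used by most of these cell types. Whether a member differs through fewer cells of a type or through less RNA per cell cannot be told apart in pooled RNA, and the part of cell makeup in the member ratios was not tested.

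**Figure D5:**
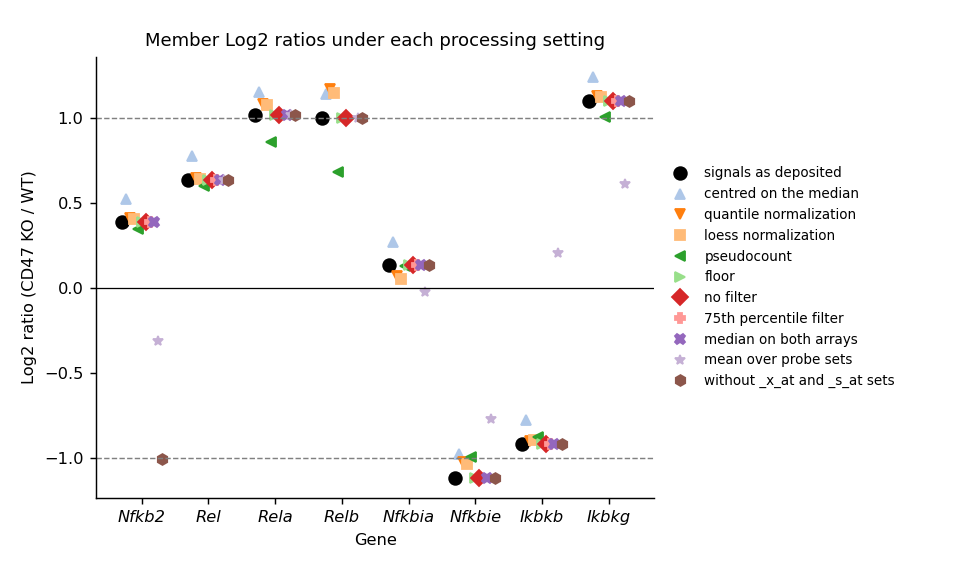
Log2 ratio (CD47 KO/WT) of each member gene under the signals as deposited and 10 other processing settings, with dashed lines at 2-fold. A filter leaves the ratio of a kept probe set unchanged. *Rel*, *Rela*, *Relb* and *Ikbkg* stayed above zero and *Nfkbie* below zero in each setting that gave a value, *Relb* ranged from 0.69 to 1.17, and *Nfkb2*, *Nfkbia* and *Ikbkb* took both signs depending on the choice of probe set.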

How the data were processed

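Signal intensities of 45101 probe sets from 2 arrays, 1 per genotype, were used as deposited. Per the labels and the study's methods, the authors amplified 20 ng of pooled total RNA per genotype with the Ovation Pico WTA system, hybridised biotinylated product to the Affymetrix array and computed MAS5 signal intensities on a linear scale with the Expression Console Software, version not given in the sources used here. MAS5 scales each array to a common trimmed mean, so a change shared by most genes would not show. Detection calls are not used here. Probe sets were named by the platform annotation, with 1 symbol for 34945 probe sets, several for 932 and none here for 9160. Of the first, 34741 have a gene identifier in the RefSeq table of GRCm38.p6.

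Log2 ratios were computed in Python 3.11.15 with numpy 2.4.6, pandas 2.3.3 and statsmodels 0.14.6, with no offset and no test, since there are no replicates and the number of arrays limits the precision. A gene takes the value of its brightest expressed probe set, except where any expressed probe set past 2-fold is counted. The members and the gene lists (4 of other pathway roles, 1 of immediate early genes and 11 of cell type markers) were chosen with earlier results of these data known. From each pathway list the text names the 2 brightest genes and up to 4 with the largest change past 2-fold. *Bcl3*, *Cxcl1*, *Myc* and *Fosl2* lie outside that rule and were named after their values were seen. *Birc3* is named only as a gene on more than 1 list. List genes without a named probe set are not analysed here. The calculation was tested on simulated data with effects larger than the ratios of the expressed members and noise smaller than the SD between probe sets. That test does not show whether ratios just past 2-fold on dim probe sets are recovered. In all, 10 alternatives changed the normalization, the treatment of low signals, the filter or the choice of probe set.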

Additional observations from a re-analysis of the deposited data

How the results depend on the processing

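The median Log2 ratio of the member genes lay between 0.39 and 0.65, over 8 genes except at the 75th percentile (5 genes, 0.39) and with the median on both arrays (7 genes, 0.39). The counts past 2-fold were less stable. The deposited signals gave 4 genes (5 probe sets) higher and 2 genes (2 probe sets) lower, beside 6.85% and 9.32% of all expressed genes. Adding the 25th percentile of each array to its signals left 2 (3) and 0 (0), beside 3.75% and 7.16% of all genes. A signal at the 75th percentile on at least 1 array left 1 (2) and 0 (0), beside 2.27% and 3.13%. The median on both arrays left 2 (3) and 1 (1), beside 2.37% and 3.85%. Centring on the median left 0 genes (0 probe sets) lower, quantile and loess normalization left 1 (1) each, and the mean over probe sets left 2 genes higher (*Rela* and *Relb*) and 0 lower. Members with probe sets of both signs went from 4 to 1 at the 75th percentile and to 2 without probe sets ending in _x_at or _s_at.

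For the other pathway genes, 7 higher and 4 lower became 4 and 2 with the percentile added. They became 1 and 0 at the 75th percentile and 2 and 1 with the median on both arrays. Of all genes, 11695 were expressed in the deposited signals, 6931 at the 75th percentile and 10322 with the median on both arrays. Centring, quantile and loess each left 2 lower. These pathway counts use the brightest probe set, and the share of all genes by that rule was not computed in each setting. The shares of all genes given above for these settings, by any expressed probe set, fell too. How many pathway genes each filter kept is not given here. The median of the negative regulators moved from -0.27 to 0.0081 with the mean over probe sets, and that of the target genes from 0.15 to 0.29 with centring, which shifted all genes by 0.14. Of 193 values recomputed, 156 stayed within a margin and 37 moved further. For a single gene the margin was the SD between probe sets at its brightness, and for a count it was 1.5 times. For a list median it was the SD over all brightnesses, scaled to the number of genes (0.12 to 0.40). Many of the 156 did not move at all, since a filter leaves the ratio of a kept probe set unchanged. The 156 is therefore no measure of stability, nor is the lack of sign changes among values past 2-fold. *Nfkb2* (0.39) became -0.31, *Ikbkb* (-0.91) became 0.21 and *Nfkbia* (0.13) became -0.03 with the mean over probe sets, and *Nfkb2* became -1.01 without probe sets ending in _x_at or _s_at. *Relb* at the 75th percentile and with the median on both arrays, and *Rela* and *Nfkbie* at the 75th percentile, gave no value. No paired analysis was possible because each genotype has 1 array.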
